A study of Mus musculus with 2 samples.

Results

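The genes described here are 9 transcription factors that build or maintain the macrophage lineage: Spi1, Cebpa, Cebpb, Cebpd, Maf, Runx1, Mitf, Tfec and Bhlhe40. They were chosen by symbol, and all 9 were found among the 34745 Ensembl genes listed for each library. Messenger RNA had been sequenced from 2 libraries of C57BL/6 mouse peritoneal macrophages, 1 from Kdm2b-/- mice and 1 from wild type mice. Both came from cells harvested 4 days after thioglycollate, an irritant that recruits macrophages to the peritoneum, and both had received bacterial lipopolysaccharide (LPS) at 100 ng/ml, for 4 h by the sample characteristics and for 3 h by the treatment protocol. The labels give neither the kind of Kdm2b allele nor the number, age or sex of the mice. With 1 library per genotype there was no replicate error and no test across samples, so each value below describes these libraries.

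A macrophage is specified by a small group of DNA-binding proteins that act together on the enhancers of myeloid genes. PU.1, encoded by Spi1, opens those enhancers, C/EBP proteins bind beside it, and RUNX1 acts earlier, when blood stem cells arise and when Spi1 itself is switched on. MAF restrains self-renewal and favours Il10, MITF and TFEC bind E-box sequences of lysosomal and osteoclast genes, and BHLHE40 is a repressor that also binds E-boxes and limits Il10. KDM2B, the product of the targeted gene, is a histone demethylase whose CXXC zinc finger binds unmethylated CpG dinucleotides and brings a variant Polycomb complex to CpG islands.

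The targeted gene did not mark the libraries. Kdm2b (ENSMUSG00000029475) stood at 0.326 FPKM (fragments per kilobase of transcript per 1000000 mapped fragments) in the library labelled Kdm2b-/- and 0.205 FPKM in the wild-type library, or 45 and 29 estimated fragments, and the 95% counting interval of the log2 FPKM ratio ran from -0.05 to 1.38. Rnf34, which overlaps it on the other strand, stood at 9.21 and 8.64 FPKM. A value per gene cannot reveal the loss of an exon. Directions below are therefore those of the library labelled Kdm2b-/-. Estimated depths were 26807400 and 27273100 fragments. All 10 macrophage markers examined were past a mean of 1 FPKM, with a median log2 ratio of 0.00, and the markers Cd68 and Lyz2 reached 1753 and 11409 FPKM in the library labelled Kdm2b-/-. Their farthest members from 0 were Adgre1, Lyz2 (both 0.35), Cd14 (-0.33) and Mertk (0.29). The 7 B cell markers summed to 2.87 FPKM in the library labelled Kdm2b-/- and 27.3 FPKM in the wild-type library, with none at 0 in both; Igkc had a log2 ratio of -3.01 and Ighm of -1.99. The 11 mesothelial and stromal markers summed to 401 and 349 FPKM, most of it the proteoglycan gene Dcn at 251 and 248 FPKM, and had a median log2 ratio of 0.44. Of these 11, 3 collagen genes were at least 2-fold higher in the library labelled Kdm2b-/-: Col1a1 at 16.0 against 3.63 FPKM, Col1a2 at 24.2 against 9.67 FPKM and Col3a1 at 22.9 against 9.54 FPKM, with Pdgfra next at 12.1 against 7.81 FPKM. The 11 did not share a direction, with 8 above 0 and 3 below: Msln (log2 ratio -0.50), Lum (-0.35) and Krt19 (-0.31). Of the 7 T and NK cell markers, which summed to 5.35 and 8.85 FPKM, Cd3e, Cd3d, Cd3g and Nkg7 were listed at 0 in both, Lck had a log2 ratio of -1.02 and Thy1 of 0.10. The 7 neutrophil markers summed to 17.9 and 15.9 FPKM with Mpo, Retnlg and Ly6g at 0 (S100a8 0.07 and Mmp9 0.59 by log2 ratio). The 7 eosinophil and mast cell markers summed to 0.791 and 1.73 FPKM with Epx, Mcpt4 and Fcer1a at 0 (Siglecf -0.75). The 7 dendritic cell markers, with Xcr1 and Clec9a at 0, summed to 15.7 and 30.1 FPKM. Most of that sum was the 1 gene Ccl22, at 14.6 and 29.2 FPKM (-0.95). Some cells of these other types also express several of the 9 genes, among them Spi1, Maf, Runx1, Mitf, Cebpd and Bhlhe40. The part of these cells in the values below was not tested for any of the 9. In bulk RNA, fewer cells of a type and less RNA per cell cannot be told apart.

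Promoter sequence was available from RefSeq (GRCm38.p6) for Cebpa, Cebpb, Runx1, Mitf and Tfec, 8 start sites in all. For each, the 250 bases before the start were searched on both strands for 6 motifs: AGGAAGT, a PU.1 or ETS core; TTGCNNAA, a C/EBP site; CACGTG, an E-box; TGACGTCA, a cyclic AMP response element; TGTGGT, a RUNX core; and TGCTGAC, part of a MAF element. No match overlapped another. Mitf and Tfec are shown first because these related genes lay on opposite sides of the all-gene median. The Tfec window is chr6:16898442-16898691 on the minus strand; the Mitf windows are chr6:97806808-97807057, before the most upstream start, and chr6:97991533-97991782, before the most downstream start, both on the plus strand. They are written 5′ to 3′ with motif matches in capitals.
Tfec: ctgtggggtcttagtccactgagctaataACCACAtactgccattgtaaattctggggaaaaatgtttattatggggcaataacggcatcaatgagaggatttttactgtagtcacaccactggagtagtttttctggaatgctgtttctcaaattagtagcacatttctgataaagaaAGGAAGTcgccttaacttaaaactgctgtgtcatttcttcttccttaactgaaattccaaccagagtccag
Mitf, upstream start: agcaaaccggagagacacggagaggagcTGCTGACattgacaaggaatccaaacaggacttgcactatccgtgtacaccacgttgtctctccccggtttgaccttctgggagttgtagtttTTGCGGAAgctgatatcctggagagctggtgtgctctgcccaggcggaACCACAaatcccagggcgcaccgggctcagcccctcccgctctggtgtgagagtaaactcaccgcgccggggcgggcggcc
Mitf, downstream start: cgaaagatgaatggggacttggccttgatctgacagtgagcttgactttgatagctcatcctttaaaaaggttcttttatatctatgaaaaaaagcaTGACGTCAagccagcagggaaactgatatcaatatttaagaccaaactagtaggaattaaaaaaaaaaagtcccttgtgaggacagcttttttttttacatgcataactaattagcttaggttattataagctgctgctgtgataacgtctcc

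The Tfec window held AGGAAGT, starting 71 bases before the start site, and a RUNX core in reverse orientation at 221 bases. AGGAAGT occurred in 7.69% of 32807 mouse promoter windows of this length and the RUNX core in 14.0%. At the upstream start of Mitf there were a MAF element, a C/EBP site and a RUNX core, at 222, 129 and 81 bases, motifs held by 3.81%, 9.57% and 14.0% of all windows. The downstream start, which belongs to the melanocyte form of MITF, held the cyclic AMP element at 153 bases, found in 1.55% of windows. The remaining Mitf start held only the MAF element. The deposited values are per gene and do not show which Mitf start was used. Of the other windows, the distal Runx1 promoter held an E-box at 71 bases, a motif of 6.02% of windows, and no match was found before the proximal Runx1 start or before Cebpa and Cebpb.

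CpG content separated the same genes widely. The Cebpb window (chr2:167688665-167688914, plus strand) is shown as the richest, with each CpG in capitals.
Cebpb: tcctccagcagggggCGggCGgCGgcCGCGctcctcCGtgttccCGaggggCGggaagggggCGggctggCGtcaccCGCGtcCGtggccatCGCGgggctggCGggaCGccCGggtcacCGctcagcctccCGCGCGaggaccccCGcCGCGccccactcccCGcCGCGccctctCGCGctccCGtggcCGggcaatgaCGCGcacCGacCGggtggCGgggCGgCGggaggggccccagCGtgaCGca
It held 41 CpG, and 0.866% of all windows held more. Cebpa had 22, the proximal Runx1 promoter 27 and the distal Runx1 promoter 2. The 3 Mitf windows had 15, 4 and 3 from upstream to downstream, and Tfec had 2. The median over all windows was 6. Cebpb and Tfec were the 2 genes whose counting intervals lay below 0 on FPKM as deposited. They had the most and, level with the distal Runx1 promoter, the fewest CpG. Of the genes above 0, Cebpa had 22, and Runx1 and Mitf each had windows on both sides of the median of 6. Values per gene do not show which of these starts was used. A link between CpG content and the ratios was not tested.

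All 9 genes differed by less than 1.5-fold between the libraries on the scale used for counting, the log2 ratio of FPKM + 1, which shrinks the ratios of scarce genes. Under other settings single genes passed 1.5-fold: Tfec at -0.62 with the libraries scaled to an all-gene median of 0, Bhlhe40 at 0.59 with equal FPKM totals, and Cebpa at 0.63 with 0.1 in place of 1 FPKM added. Over the 9017 genes whose mean reached 1 FPKM, 1.87% were at least 2-fold apart and 7.47% at least 1.5-fold apart (4.69% higher and 2.78% lower), and the median log2 ratio was 0.10. Of the 9 genes, 8 passed this floor. Cebpa passed at a mean of 1.02 FPKM only through its value in the library labelled Kdm2b-/-, and Runx1 lay outside it at 0.579 FPKM. The 8 had a median of 0.16, and all 9 had 0.19. Above 0 were 6 of the 9 and below 0 were 3, where 63.2% of all genes past the floor were above 0. Counting intervals, which cover counting error only, excluded 0 for 7 of the 8 genes past the floor, 5 above and 2 below; 63.3% of all genes past the floor had such an interval, 43.0% above and 20.3% below. At this depth most expressed genes differed by more than counting error, so an interval away from 0 did not set the 9 apart.

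**Figure D1:**
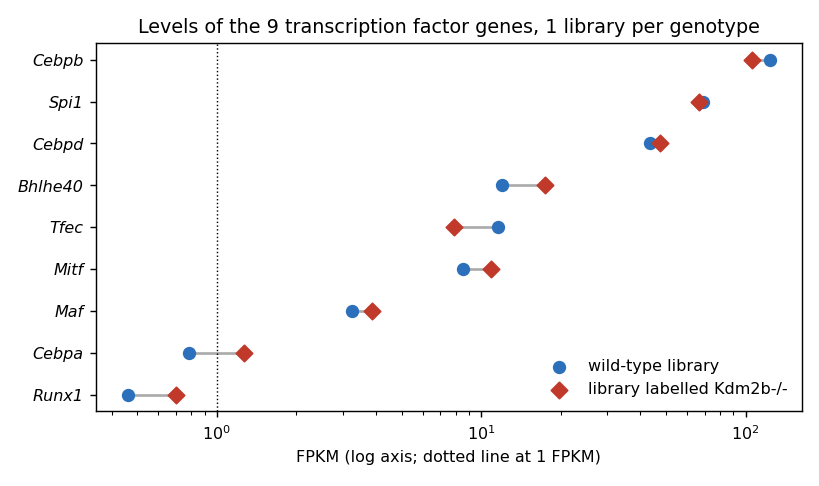
Level of each gene in FPKM on a log axis, with a circle for the wild-type library and a diamond for the library labelled Kdm2b-/-. Cebpb, Spi1 and Cebpd sit highest in both libraries, Runx1 sits lowest, and Mitf and Tfec exchange places.

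The levels of the 9 genes spanned a wide range and kept nearly the same order in both libraries. FPKM is scaled to length, so levels were set side by side between genes. The trend with length and GC content described below was not removed from these levels. In both libraries the order from the top was Cebpb, Spi1, Cebpd and Bhlhe40, and from the bottom Runx1, Cebpa and Maf. Between them, Mitf was above Tfec in the library labelled Kdm2b-/-, by 1.38-fold (counting interval 1.26 to 1.51), and below it in the wild-type library, where Tfec was 1.36-fold higher (1.25 to 1.48). With the longest transcript of each gene as the length, Bhlhe40 and Tfec were the only neighbours in this order not apart beyond counting error. This was in the wild-type library, at a ratio of 1.04 (0.949 to 1.13).

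Spi1, which encodes the master regulator PU.1 (ENSMUSG00000002111, chromosome 2, 91082390 to 91115756, GRCm38), had the smallest difference of the 9 on this scale. Its FPKM was 66.7 in the library labelled Kdm2b-/- and 69.0 in the wild-type library, a level exceeded by 7.55% and 7.66% of genes past the floor. The log2 ratio was -0.05 and the counting interval, -0.12 to 0.02, was the only one of the 9 that held 0 on FPKM as deposited. The sign of this ratio turned when the libraries were scaled to equal FPKM totals, to 0.04. With the libraries scaled to a median of 0, Spi1 stood at -0.17, farther from 0 than Cebpd (-0.01) and Maf (0.09), and its interval lay below 0. Its nearest relatives, Spib, a factor of B cells and plasmacytoid dendritic cells, and Spic, a factor of red pulp macrophages, were low. Spib stood at 1.85 and 2.54 FPKM, and Spic at 0.00741 FPKM and at 0 in the wild-type library. Spi1 thus held 97.3% and 96.4% of the summed FPKM of these 3 genes.

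The C/EBP genes differed from one another in direction. Cebpb, an LPS-inducible activator of cytokine and acute-phase genes (ENSMUSG00000056501, chromosome 2, 167688915 to 167690418), was the most abundant of the 9, at 106 FPKM in the library labelled Kdm2b-/- and 124 FPKM in the wild-type library. It is the only one of the 9 with a single annotated transcript, so that its estimate of 4272 and 5068 fragments does not depend on a choice of length. The log2 ratio was -0.22, with a counting interval of -0.28 to -0.16. Cebpd, a second inducible family member (ENSMUSG00000071637, chromosome 16, 15887286 to 15891031), was slightly higher in the library labelled Kdm2b-/-, at 47.3 against 43.4 FPKM, a log2 ratio of 0.12 (0.06 to 0.18). This lay close to the all-gene median of 0.10, and when the libraries were scaled to a median of 0 the ratio was -0.01. Cebpa, the factor of early myeloid commitment (ENSMUSG00000034957, chromosome 7, 35119293 to 35121928), was scarce, at 1.26 and 0.781 FPKM from about 89 and 56 fragments. Its log2 ratio of 0.34 corresponds to 1.62-fold in FPKM itself, with a wide interval of 0.19 to 1.20.

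Within the family the balance between members differed by small amounts. Cebpb exceeded Cebpd 2.24-fold in the library labelled Kdm2b-/- and 2.85-fold in the wild-type library. The ratio of ratios was 0.788 (counting interval 0.743 to 0.835). No scaling of a whole library can move this measure, but the trend with length and GC content described below can. The log2 ratio of Cebpb minus that of Cebpd was -0.34, and -0.25 with that trend removed. Over 6 family genes the summed FPKM was 175 and 185, of which Cebpb held 60.4% and 66.6%. Of the related genes, Cebpg, an inhibitory partner, stood at 5.62 and 4.78 FPKM (log2 ratio 0.19), and Ddit3, which encodes the stress factor CHOP, at 15.3 and 12.7 FPKM (0.26). Trib1, whose product promotes the breakdown of C/EBP alpha, stood at 2.10 and 1.15 FPKM (0.52, interval 0.56 to 1.18 without the added 1 FPKM). The granulocyte factor gene Cebpe was listed at 0 in the library labelled Kdm2b-/- and at 0.207 FPKM in the wild-type library. The 3 relatives past the floor were thus all above 0, as was Cebpd, while Cebpb was below.

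Mitf and Tfec, a pair of related genes of the MiT/TFE family, lay on opposite sides of 0. Mitf (ENSMUSG00000035158, chromosome 6, 97807052 to 98021349), a regulator of melanocytes, mast cells and osteoclasts, was at 10.9 FPKM in the library labelled Kdm2b-/- and 8.52 FPKM in the wild-type library, a log2 ratio of 0.32 (counting interval 0.24 to 0.47). Tfec (ENSMUSG00000029553, chromosome 6, 16833373 to 16898441), whose expression is largely restricted to macrophages, was at 7.90 and 11.6 FPKM, a log2 ratio of -0.50 (-0.69 to -0.42). It was the lowest of the 9, and 11.4% of genes past the floor had a larger difference in either direction. The ratio of Mitf to Tfec was 1.38 in the library labelled Kdm2b-/- and 0.733 in the wild-type library, which differ 1.88-fold (1.66 to 2.12). The log2 ratio of Mitf minus that of Tfec was 0.82, and 0.71 with the trend in length and GC content removed. The summed FPKM of the 4 family genes was nearly the same, 21.6 and 22.0, so the libraries differed in the makeup of the family more than in its total. Mitf held 50.3% of it in the library labelled Kdm2b-/- and 38.6% in the wild-type library, and Tfec 36.6% and 52.7%. The lysosomal regulators Tfe3 (2.23 and 1.54 FPKM, log2 ratio 0.35) and Tfeb (0.583 and 0.370 FPKM) were also above 0, with limits. Tfeb lay under the floor at about 37 and 24 fragments, and its counting interval, -0.13 to 1.45, held 0. Tfe3 stood at 0.14 with the trend in length and GC content removed, beside an all-gene median of 0.10.

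**Figure D2:**
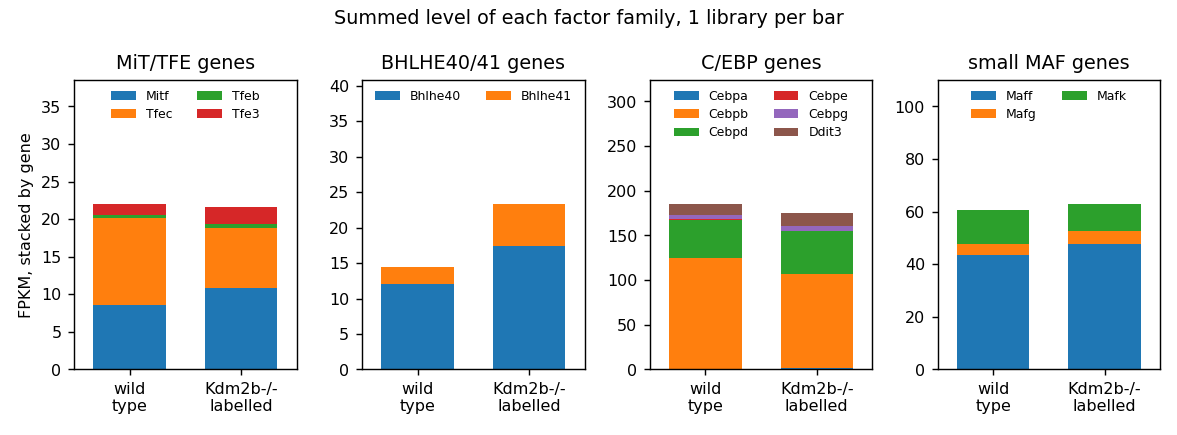
Stacked FPKM of the genes of 4 factor families in the wild-type library and the library labelled Kdm2b-/-, each panel with its own axis from 0. The MiT/TFE bars are nearly equal in height (22.0 and 21.6 FPKM) with different shares of Mitf and Tfec, and the BHLHE40/41 bar is taller in the library labelled Kdm2b-/- (23.4 against 14.5 FPKM).

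Bhlhe40 was the highest of the 9 by ratio, and its paralog was higher still. Bhlhe40 (ENSMUSG00000030103, chromosome 6, 108660629 to 108666925) was at 17.5 FPKM in the library labelled Kdm2b-/- and 12.0 FPKM in the wild-type library, a log2 ratio of 0.50 (counting interval 0.42 to 0.66), and 11.3% of genes past the floor had a larger difference in either direction. Bhlhe41, which encodes a closely related repressor of circadian and macrophage genes, was at 5.90 and 2.46 FPKM, a log2 ratio of 0.996 that lay just inside 2-fold. The counting interval of its log2 FPKM ratio ran from 1.09 to 1.43. Both genes were above 0, and their summed FPKM was 23.4 and 14.5. Bhlhe41 held 25.2% of that sum in the library labelled Kdm2b-/- and 17.0% in the wild-type library.

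Maf (ENSMUSG00000055435, chromosome 8, 115682942 to 115707794) was expressed at a low level and differed little. It stood at 3.85 FPKM in the library labelled Kdm2b-/- and 3.25 FPKM in the wild-type library, a log2 ratio of 0.19 (0.08 to 0.41), 54.6% of genes past the floor having a larger difference. Its relatives Mafa and Nrl, of pancreatic beta cells and photoreceptors, were listed at 0 in both libraries. The small MAF genes, whose proteins lack an activation domain and pair with other bZIP factors, were on both sides: Maff stood at 47.7 and 43.5 FPKM (0.13), Mafg at 4.93 and 4.23 FPKM (0.18) and Mafk at 10.4 and 13.03 FPKM (-0.31). Maff was thus more abundant than Maf, Mafg and Mafk in either library.

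Runx1 (ENSMUSG00000022952, chromosome 16, 92601466 to 92826149) was the least abundant of the 9. It stood at 0.698 FPKM in the library labelled Kdm2b-/- and 0.461 FPKM in the wild-type library, or 110 and 74 estimated fragments, with a log2 ratio of 0.22 and 1.51-fold in FPKM. The counting interval ran from 0.16 to 1.04 with the longest of 7 transcripts as the length; with the shortest coding transcript it ran from -1.47 to 2.88 and held 0. Runx2, a bone and plasmacytoid cell factor, stood at 0.529 and 0.145 FPKM, from about 92 and 25 fragments, with a counting interval of the log2 FPKM ratio of 1.25 to 2.60. Runx3, a lymphoid factor, stood at 0.0666 and 0.0818 FPKM. Cbfb, the partner that all RUNX proteins need to bind DNA stably, was far more abundant, at 19.2 and 16.6 FPKM (log2 ratio 0.19), and Tle3, a corepressor that passed the floor only through the library labelled Kdm2b-/-, stood at 1.09 and 0.913 FPKM (0.13). Runx1t1 was listed at 0 and at 0.00991 FPKM.

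**Figure D3:**
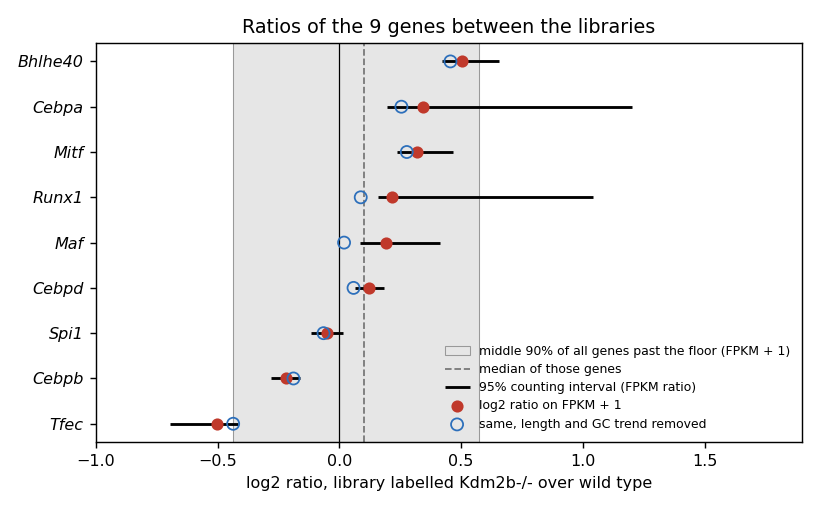
Log2 ratio of each gene, library labelled Kdm2b-/- over wild type, on FPKM + 1 (filled circles) and after removal of the trend with length and GC content (open circles), with the 95% counting interval of the FPKM ratio (bars) and the middle 90% of all genes past the floor (shaded, -0.44 to 0.57). Tfec alone lies outside the shaded range on FPKM + 1, and Spi1 alone has an interval that holds 0 on FPKM as deposited.

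Transcript length moved with the ratio over all genes. In 10 equal groups of genes ordered by length, the median log2 ratio was higher in each longer group, from -0.23 in the shortest to 0.29 in the longest. Beside the 500 genes nearest in length, 6 of the 9 differed from the neighbours' median by less than 0.2, as did 59.6% of all 9017 genes past the floor. Cebpb, with the shortest longest transcript of the 9 (1504 bases), stood at -0.22 beside -0.07, and Maf, with the longest (6360 bases), at 0.19 beside 0.26. The other 3 were Tfec, at -0.50 beside 0.14, Bhlhe40, at 0.50 beside 0.12, and Cebpa, at 0.34 beside 0.08. Mitf was 0.11 above its neighbours. After removal of the trend with length and GC content, Tfec stood at -0.44, Bhlhe40 at 0.46 and Mitf at 0.28, while Maf went from 0.19 to 0.02 and Cebpd from 0.12 to 0.06.

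**Figure D4:**
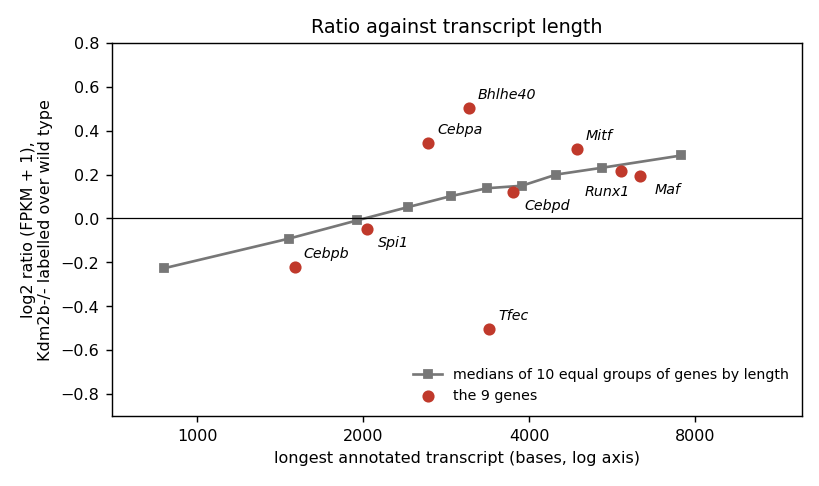
Log2 ratio on FPKM + 1 against the longest annotated transcript in bases (log axis), with the medians of 10 equal groups of genes by length (squares, joined by a line) and the 9 genes (circles). Spi1, Cebpd, Runx1 and Maf lie next to the line, Bhlhe40 and Cebpa above it and Tfec well below it.

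Reads of an overlapping gene on the other strand could not be separated, since no strand marking is described for the libraries. Of the 9 genes, 7 overlap such a gene and 0 overlap one on their own strand; Spi1 and Tfec overlap none. The partners of Cebpb and Cebpd were the expressed ones: Tmem189 stood at 9.11 and 8.86 FPKM and Spidr at 4.36 and 3.88 FPKM, well below the values of Cebpb and Cebpd. The partners of Cebpa, Maf and Bhlhe40 were listed at 0 in both libraries, and that of Mitf, Gm15531, was not analysed here. The partner of Runx1, Gm26626, was at 0.314 FPKM in the library labelled Kdm2b-/- and at 0 in the wild-type library, beside a Runx1 difference of similar size, so the Runx1 values are uncertain for this reason too.

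Relatives of the 9 genes, over their 6 families, were counted on the same scale. Of 28 genes listed, 18 passed the floor, 15 above 0 and 3 below, with a median of 0.19. Over all genes past the floor, 63.2% were above 0 and the median was 0.10. With the trend in length and GC content removed, the median of the relatives was 0.13. Bhlhe41 was the only 1 of the relatives at least 1.5-fold higher, and 0 were 1.5-fold lower, beside 4.69% and 2.78% of all genes. Among the 8 ETS genes past the floor, Ets2, an effector of growth factor signals (12.5 and 8.37 FPKM, log2 ratio 0.53), Fli1 (6.15 and 4.11 FPKM, 0.48) and Etv6 (8.30 and 6.10 FPKM, 0.39) were above 0, and the repressor gene Etv3 (2.26 and 3.13 FPKM, -0.34) was below. The other lineage factors divided: of 8 past the floor, 3 were above 0 and 5 below, with a median of -0.10. That median was -0.02 with the trend in length and GC content removed. Over all 12 found, with no floor, the median was 0.05. Klf4, a monocyte factor (4.04 and 2.04 FPKM, 0.73), and Gata6, the factor of resident peritoneal macrophages (7.85 and 4.48 FPKM, 0.69), were at least 1.5-fold higher. Zeb2 (12.4 and 8.93 FPKM, 0.44) was also above 0. Id2, an inhibitor of bHLH factors and the most abundant of these genes, was below, at 155 and 207 FPKM (-0.41).

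Genes known to be regulated by the 9 factors were examined beside them, as levels and with no reading of cause. The same shares over all genes stand beside the counts of each list: 63.2% above 0, 4.69% at least 1.5-fold higher and 2.78% lower. The 17 genes known as PU.1 targets had a median of 0.00, 8 above 0 and 9 below. Tlr4, the LPS receptor gene (3.45 and 0.732 FPKM, log2 ratio 1.36), was the 1 gene past 1.5-fold, and it passed the floor only through the library labelled Kdm2b-/-. The Fc receptor gene Fcgr3 stood at 69.1 and 98.7 FPKM (-0.51), Adgre1, which encodes a surface receptor of mature macrophages, at 56.9 and 44.3 FPKM (0.35) and the lysozyme gene Lyz2 at 11409 and 8945 FPKM (0.35). On FPKM + 1 the list median and Spi1 (-0.05) both lay near 0, under the all-gene median of 0.10. Corrected for length and GC content, the list median was 0.08 and Spi1 stood at -0.06. Scaling the libraries to an all-gene median of 0 put Spi1 at -0.17. No link between Spi1 and the list was tested.

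The C/EBP target list had a median of 0.10 over 13 genes, equal to that of all genes, with its farthest members below 0. Arg1, the arginase of alternatively activated macrophages (5.56 and 13.5 FPKM, log2 ratio -1.14), and the cytokine gene Il6 (43.1 and 88.1 FPKM, -1.01) were lower by 2-fold or more, and Il1b (1156 and 1768 FPKM, -0.61) at least 1.5-fold lower, though at -0.36 with the length and GC trend removed. Nos2, the inducible nitric oxide synthase, was the highest, at 22.2 and 15.4 FPKM (0.50). Of the 13, 8 were above 0 and 5 below. Il6 and Il1b were lower, as was Cebpb, whereas Nos2 was higher, and a link between these levels was not tested.

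Among 13 genes known as MiT/TFE targets, the median was -0.06, with 6 above 0 and 7 below. The 4 with the largest ratios lay on both sides of 0. The proton pump subunit gene Atp6v0d2 stood at 244 and 354 FPKM (log2 ratio -0.53), the phosphatase gene Acp5 at 367 and 500 FPKM (-0.45) and the collagen-degrading protease gene Ctsk at 408 and 546 FPKM (-0.42). The autophagy receptor gene Sqstm1 stood at 188 and 116 FPKM (0.69). Removing the trend in length and GC brought these to -0.40, -0.29, -0.25 and 0.65.

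The list of genes known as MAF targets or linked to MAF was below 0 as a whole, with Maf itself slightly above. Of its 8 genes past the floor, 6 were below 0 and 2 above, with a median of -0.45. Removing the trend in length and GC brought this median to -0.31. The folate receptor gene Folr2 was at 7.78 and 16.8 FPKM (log2 ratio -1.02), and the anti-inflammatory cytokine gene Il10, which MAF activates and BHLHE40 represses, at 5.47 and 9.82 FPKM (-0.74, and -0.46 with the trend removed). The complement gene C1qb stood at 370 and 530 FPKM (-0.52). F13a1, a coagulation factor subunit gene, went the other way, at 4.25 and 2.29 FPKM (0.67). Il10 was lower in the library in which Bhlhe40 and Bhlhe41 were higher and Maf slightly higher. A link between these levels was not tested.

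**Figure D5:**
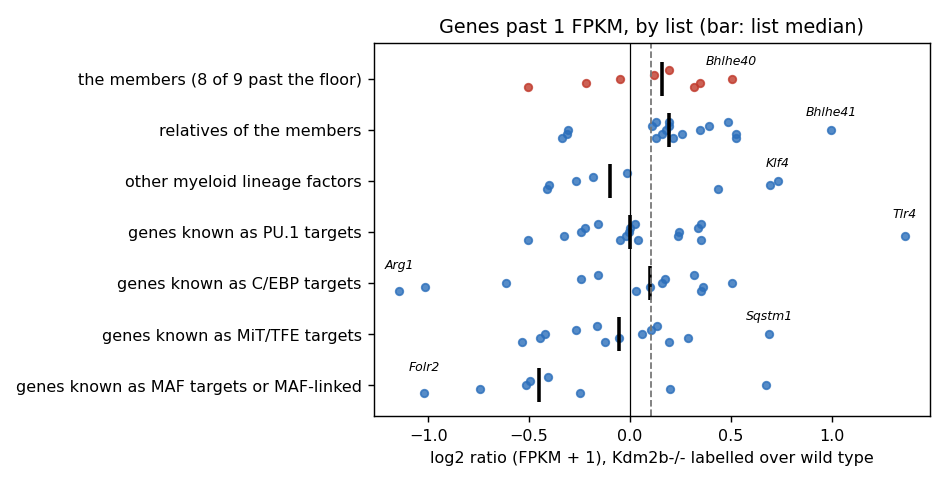
Log2 ratio on FPKM + 1 of each gene past the floor, by list, with a bar at the list median, a dashed line at the all-gene median of 0.10 and the name of the gene farthest from 0 in each list. The members lie between -0.50 and 0.50, and of the lists plotted the MAF-linked list has the lowest median, -0.45.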

How the data were processed

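The authors deposited 1 FPKM value per Ensembl gene and library, per the file headers. HISAT2 2.0.4, StringTie 1.3.0, edgeR and the builds GRCm38.p4 and mm10 are listed in the submitters' processing notes; their roles, the gene annotation and filtering were not given in the sources used here. Libraries were paired-end, from polyadenylated RNA and random primers, per the labels' protocols. FPKM also moves with the most abundant genes and with RNA fragmentation.

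Symbols were found for 34267 IDs, and values of IDs sharing a symbol were summed. Positions and lengths came from GENCODE M21 (GRCm38), promoters from RefSeq. The members and lists were chosen with earlier results of these data known. Log2 ratios used FPKM + 1 and a floor of a mean of 1 FPKM. Fragments were estimated from single-transcript genes, whose FPKM multiplied by length took whole multiples of 1 step (within 0.02 of a fragment for 92.6% and 92.2% of 1507 and 1444 low genes), and the longest transcript. Exact Clopper-Pearson 95% intervals, and exact conditional intervals of the odds ratio for pairs of genes, leave out all error but counting, and PCR copies are counted as if independent. The length and GC trend was removed as medians of 20 bins each. From every list of up to 5 genes past the floor all were named, and from longer lists up to 4 with the largest ratios. Other genes were singled out after their values were seen (Spib, Spic, Tfeb, Mafa, Nrl, Runx2, Runx3, Runx1t1, Cebpe, Cd68, Dcn, Msln, Lum, Krt19). Calculations used Python 3.11.15, scipy 1.17.1 and pandas 2.3.3, and were tested on simulated data.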

Additional observations from a re-analysis of the deposited data

How the results depend on the processing

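No member was 2-fold apart in the reported setting or the alternatives run, and at a 1.5-fold threshold 0 were apart on the reported scale, though Tfec reached -0.62 scaled to a median of 0, Bhlhe40 0.59 with equal totals and Cebpa 0.63 with 0.1 FPKM added. The median log2 ratio of the members, 0.16, was -0.00516 with the libraries scaled to an all-gene median of 0 (a shift of 0.10 for all genes, which also took Cebpa under the floor), 0.0391 with the length and GC trend removed and 0.0355 at a floor of 5 FPKM, where 6 members remained. With the scaling to a median of 0, chosen for the intervals after the data were seen, 2 rather than 5 members had a counting interval above 0 (Bhlhe40 and Mitf, with Cebpa no longer counted) and 3 rather than 2 below (Spi1 added, as with equal upper quartiles), and Cebpd, the middle member, turned to -0.00516. Tfec lay between -0.62 and -0.36, Bhlhe40 between 0.38 and 0.59, Mitf between 0.20 and 0.40 and Cebpb between -0.35 and -0.13 in the settings run. Low members were limited by depth: about 89 and 56 fragments lay behind Cebpa. No paired analysis was possible because each genotype had 1 library, and for the same reason no library could be left out.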
